A study of Homo sapiens with 4 samples.

Results

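The genes of DNA replication and nucleotide synthesis were followed across engineered prostate cancer tissues grown with and without fibroblasts. They were chosen by name, as 43 gene symbols out of 17791 in the deposited table, and all 43 were found there. The libraries came from day 15 of culture, with 1 library in each of 4 groups. The groups were LNCaP coculture (LNCaP cells with BJ-5ta fibroblasts), LNCaP monoculture, PC-3 coculture (PC-3 cells with the same fibroblasts) and PC-3 monoculture. Cocultures were seeded with 5 parts of cancer cells to 1 part of fibroblasts, and all groups are labelled as given no treatment. LNCaP and PC-3 are human prostate cancer lines, which the labels class as androgen-dependent (LNCaP) and castration-resistant (PC-3, titled CRPC-ne, a suffix they do not explain). BJ-5ta is a line of human fibroblasts kept dividing by telomerase. Cells were held in a hydrogel of poly(ethylene glycol) and fibrinogen. Each cancer is modelled by a single line. The culture text, identical for all samples, describes PC-3 tissues and their medium, so the medium of the LNCaP tissues is not known here. RNA came from more than 2 tissues, and whether it was pooled is not stated, so the spread between tissues cannot be seen.

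Replication begins when the origin recognition complex, CDC6 and CDT1 load the MCM2 to MCM7 helicase onto DNA in G1. In S phase CDC45 and the GINS complex join the helicase, MCM10 helps to start it, and polymerases alpha, delta and epsilon copy the strands behind it with the PCNA clamp, its RFC loader and the single-strand binding protein RPA. Ribonucleotide reductase, thymidylate synthase, thymidine kinase and dUTPase supply the deoxynucleotides. Many of these genes are transcribed under the control of E2F factors around the start of S phase, and they are widely read as a sign of cycling cells. In bulk RNA, fewer cycling cells and less RNA per cell cannot be told apart, and in a coculture the RNA of cancer cells and fibroblasts is mixed.

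Total counts lay between 15520243 and 15865690 per library. Levels are counts per 1000000 counts (CPM) after scaling with TMM factors of 0.996 to 1.01. With 1 library per group no test between groups was possible, and every difference below compares libraries, not conditions. The 95% intervals given beside folds are exact intervals for a ratio of counts and cover counting error only. They narrow as counts rise. Shares of all genes given beside counts of members include genes from 1 CPM upward and are not matched to the members for level. KLK3, the prostate-specific antigen gene and a marker of LNCaP, was at 4779 CPM in the LNCaP coculture, 3814 CPM in the LNCaP monoculture and 0 in either PC-3 library. Fibroblast markers, 32 genes, summed to 2224 CPM in the LNCaP coculture, where 1 was at 0, against 462 CPM in its monoculture, where 12 were at 0, among them COL1A2 and DCN. They summed to 3826 CPM in the PC-3 coculture, where 0 were at 0, against 2703 CPM in its monoculture, where 9 were at 0, among them MMP2 and TIMP3. Both monocultures express part of the list, COL6A1 at 274 CPM with LNCaP, so the sums do not rank the cocultures by fibroblast RNA. COL1A2, MMP2 and TIMP3, at 0.19 CPM or less in either monoculture, were at 231, 115 and 67.0 CPM in the LNCaP coculture. In the PC-3 coculture they were at 129, 39.4 and 49.3 CPM. Of the 31 markers measured between the cocultures, 15 were higher with LNCaP and 16 lower. How far fibroblast RNA moved the replication genes in the cocultures was not tested.

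Replication genes as a group lay lower in the LNCaP coculture than in its monoculture and higher in the PC-3 coculture than in its monoculture. The 43 genes summed to 2619 CPM in the LNCaP coculture against 2887 CPM in its monoculture. They summed to 2248 CPM in the PC-3 coculture against 2039.7 CPM in its monoculture. The LNCaP libraries held the higher sums, and the gap between the lines was narrower with fibroblasts than without. All 43 genes reached 1 CPM in at least 1 library of every comparison, so none was lost to the filter on low counts. PCNA had the highest level per kilobase of transcript in every library, at 100.5 CPM per kb in the LNCaP coculture against 113 CPM per kb in its monoculture, and at 104 CPM per kb in the PC-3 coculture against 108 CPM per kb in its monoculture. The lowest per kilobase was POLE2 with LNCaP (1.27 CPM per kb in coculture, 1.75 CPM per kb in monoculture) and MCM10 with PC-3 (3.15 CPM per kb in coculture, 2.36 CPM per kb in monoculture).

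**Figure D1:**
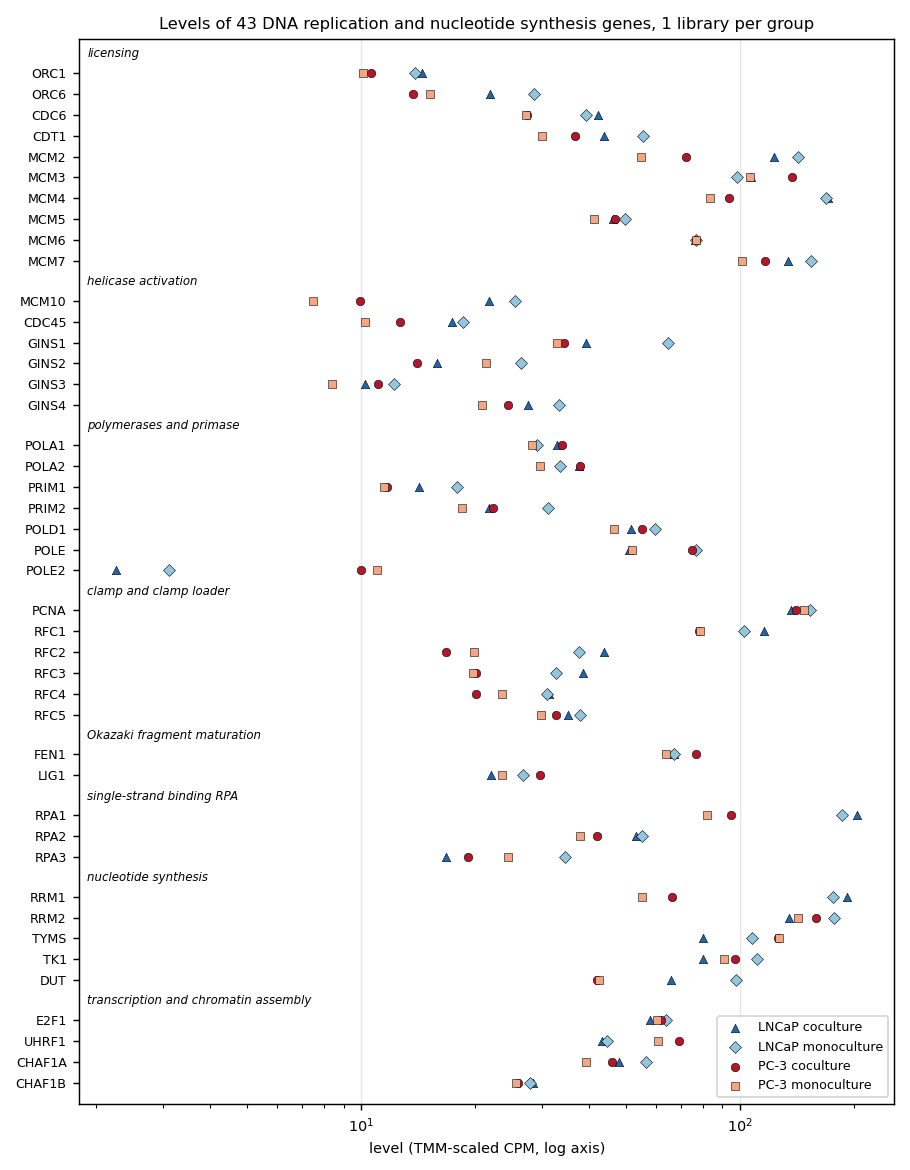
Level of each of the 43 genes in TMM-scaled CPM (log axis), 1 point per library, grouped by role, with points of near-equal level drawn over each other. MCM6 lies between 76.3 and 76.8 CPM in all 4 libraries, POLE2 is lowest in the LNCaP libraries, and RRM1 and RPA1 lie well to the right in LNCaP.

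An E2F word occurred in 19 of the 38 promoters found for the genes and was absent from the other 19. The words did not enter the choice of the genes. E2F control is known for many of them, so an excess of the words was likely beforehand. Of the 43 genes, 38 had a promoter in the RefSeq table on GRCh38.p14, as 300 bases from 250 before to 50 after the start used in that table, all but MCM4, MCM5, GINS4, RPA2 and RPA3. For 33 of the 38 this was the start of the gene in RefSeq's gene table, while in CDC45, ORC1, PRIM2, RRM2 and UHRF1 it lay 171 to 93265 bases inside the gene. The E2F words TTTCCCGC, TTTCGCGC, TTTGCCGC and TTTGGCGC were searched on both strands, overlaps included. At least 1 occurred in the 19 promoters of members, against 4.97% of the promoters of genes in the deposited table (662 of 13326) and 3.33% of all promoters (908 of 27305). Of the 33 windows at the gene start, 18 held an E2F word. The CHR words TTTGAA and TTCGAA, known from genes of late cell cycle phases, occurred in 2 of 38 (5.26%), against 11.8% of the promoters of genes in the table, 16.6% of all promoters and 24 of 33 promoters of a list of mitosis genes (72.7%). The mitosis promoters held an E2F word in 3 of 33 (9.09%). The word CCAAT occurred in 22 of 38 (57.9%), against 36.4% of the promoters of genes in the table and 35.7% of all promoters. A match is a description of letters, and no binding was measured. By role, the licensing genes held E2F words in 6 of 8 promoters, and the nucleotide synthesis genes in 1 of 5, that of TYMS.

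Promoters of 6 genes are printed 5′ to 3′ on the strand of the gene, with E2F words in capitals, because these genes recur in the results that follow. POLE had coculture folds on opposite sides of 1 in the lines, GINS2 was lower in both, POLE2 was the gene furthest below PC-3 in LNCaP, and MCM2 was among those furthest above it in monoculture. MCM6 had near-equal levels in all libraries and 4 matches, as 2 overlapping pairs, while RRM1 had no match. Counted from the start of the gene at 0, the match began at -18 in POLE, -31 in GINS2 and -5 in POLE2.
POLE, chr12:132687293-132687592, minus strand: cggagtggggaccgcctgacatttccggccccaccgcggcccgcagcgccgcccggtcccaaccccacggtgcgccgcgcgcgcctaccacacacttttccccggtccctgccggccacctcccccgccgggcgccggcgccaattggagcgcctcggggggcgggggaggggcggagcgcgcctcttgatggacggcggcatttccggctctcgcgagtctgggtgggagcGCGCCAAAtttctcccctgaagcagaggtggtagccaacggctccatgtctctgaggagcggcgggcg
GINS2, chr16:85688905-85689204, minus strand: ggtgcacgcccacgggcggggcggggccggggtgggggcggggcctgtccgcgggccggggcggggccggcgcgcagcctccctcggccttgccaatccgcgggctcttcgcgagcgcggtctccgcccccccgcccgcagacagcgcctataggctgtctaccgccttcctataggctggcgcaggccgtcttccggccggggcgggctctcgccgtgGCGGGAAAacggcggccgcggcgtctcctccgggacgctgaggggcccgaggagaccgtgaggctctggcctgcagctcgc
POLE2, chr14:49688165-49688464, minus strand: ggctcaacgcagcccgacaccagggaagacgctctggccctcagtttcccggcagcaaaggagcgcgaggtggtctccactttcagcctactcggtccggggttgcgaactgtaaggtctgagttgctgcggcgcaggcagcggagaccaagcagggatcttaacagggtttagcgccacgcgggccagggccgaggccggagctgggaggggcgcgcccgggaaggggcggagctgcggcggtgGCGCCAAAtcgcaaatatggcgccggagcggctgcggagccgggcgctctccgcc
MCM2, chr3:127598161-127598460, plus strand: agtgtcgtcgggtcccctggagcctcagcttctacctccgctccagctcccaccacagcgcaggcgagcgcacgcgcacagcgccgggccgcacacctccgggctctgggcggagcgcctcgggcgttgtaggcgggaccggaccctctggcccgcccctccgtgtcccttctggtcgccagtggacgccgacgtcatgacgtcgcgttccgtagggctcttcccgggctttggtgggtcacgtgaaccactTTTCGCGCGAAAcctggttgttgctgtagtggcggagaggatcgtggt
MCM6, chr2:135876394-135876693, minus strand: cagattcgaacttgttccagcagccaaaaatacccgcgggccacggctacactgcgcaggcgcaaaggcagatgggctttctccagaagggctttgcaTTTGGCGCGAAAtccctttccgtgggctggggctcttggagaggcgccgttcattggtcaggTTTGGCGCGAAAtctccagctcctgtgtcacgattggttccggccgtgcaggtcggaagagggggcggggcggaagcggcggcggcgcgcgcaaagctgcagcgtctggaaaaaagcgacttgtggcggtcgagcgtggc
RRM1, chr11:4094435-4094734, plus strand: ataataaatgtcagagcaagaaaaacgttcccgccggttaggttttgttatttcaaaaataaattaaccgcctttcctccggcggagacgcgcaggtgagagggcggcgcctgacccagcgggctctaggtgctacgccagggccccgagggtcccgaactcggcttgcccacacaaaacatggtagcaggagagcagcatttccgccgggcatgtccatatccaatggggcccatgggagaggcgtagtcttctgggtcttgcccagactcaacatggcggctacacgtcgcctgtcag

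The first comparison asked how the androgen-dependent tissues differed with fibroblasts, and most replication genes were lower in the LNCaP coculture than in the LNCaP monoculture. Of the 43, 29 had a log2 fold (prior count of 2) below 0, where 49.9% of the 14119 genes measured did, and 14 lay above 0 (50.1% of all genes). The members' median was -0.17 where that of all genes was 0.00. A log2 fold of -0.32 or lower was found for 13 members (19.3% of all genes) and one of 0.32 or higher for 0 (16.8% of all genes). At least 1.5-fold lower were 4 members (8.95% of all genes), RPA3, GINS2, GINS1 and POLE, and at least 1.5-fold higher 0 (7.88% of all genes). Past 2-fold, 1 member, RPA3, was lower (3.03% of all genes) and 0 higher (4.56% of all genes). The counting interval lay below 1 for 21 members (25.8% of all genes) and above 1 for 6 (27.8% of all genes). Among the roles, nucleotide synthesis had the lowest median, -0.42, with 4 of 5 genes below 0, followed by polymerases and primase at -0.33. All 6 helicase activation genes were below 0, with a median of -0.26. The clamp and its loader had a median of 0.09. After a trend on transcript length and GC content was subtracted, the members' median was -0.09 (0.04 for all genes), that of polymerases and primase -0.17, that of helicase activation -0.33 and that of nucleotide synthesis -0.37.

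In the PC-3 coculture, set against the PC-3 monoculture, most replication genes were higher by small folds. Of the 43, 33 had a log2 fold above 0, where 50.8% of the 14417 genes measured did, and 10 lay below 0 (49.2% of all genes). The median was 0.16 where that of all genes was 0.00. A log2 fold of 0.32 or higher was found for 7 members (11.8% of all genes), and one of -0.32 or lower for 2, GINS2 and RPA3 (12.3% of all genes). At least 1.5-fold lower was 1, GINS2 (3.86% of all genes), and 0 were at least 1.5-fold higher (4.65% of all genes). None of the 43 was past 2-fold, where 2.22% of all genes were higher and 1.01% lower. The counting interval lay above 1 for 22 members (21.5% of all genes) and below 1 for 4 (20.4% of all genes). Helicase activation genes had a median of 0.27, polymerases and primase 0.26 and licensing genes 0.17, while the clamp and its loader had -0.04, which became 0.04 once the trend on transcript length and GC content was subtracted.

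**Figure D2:**
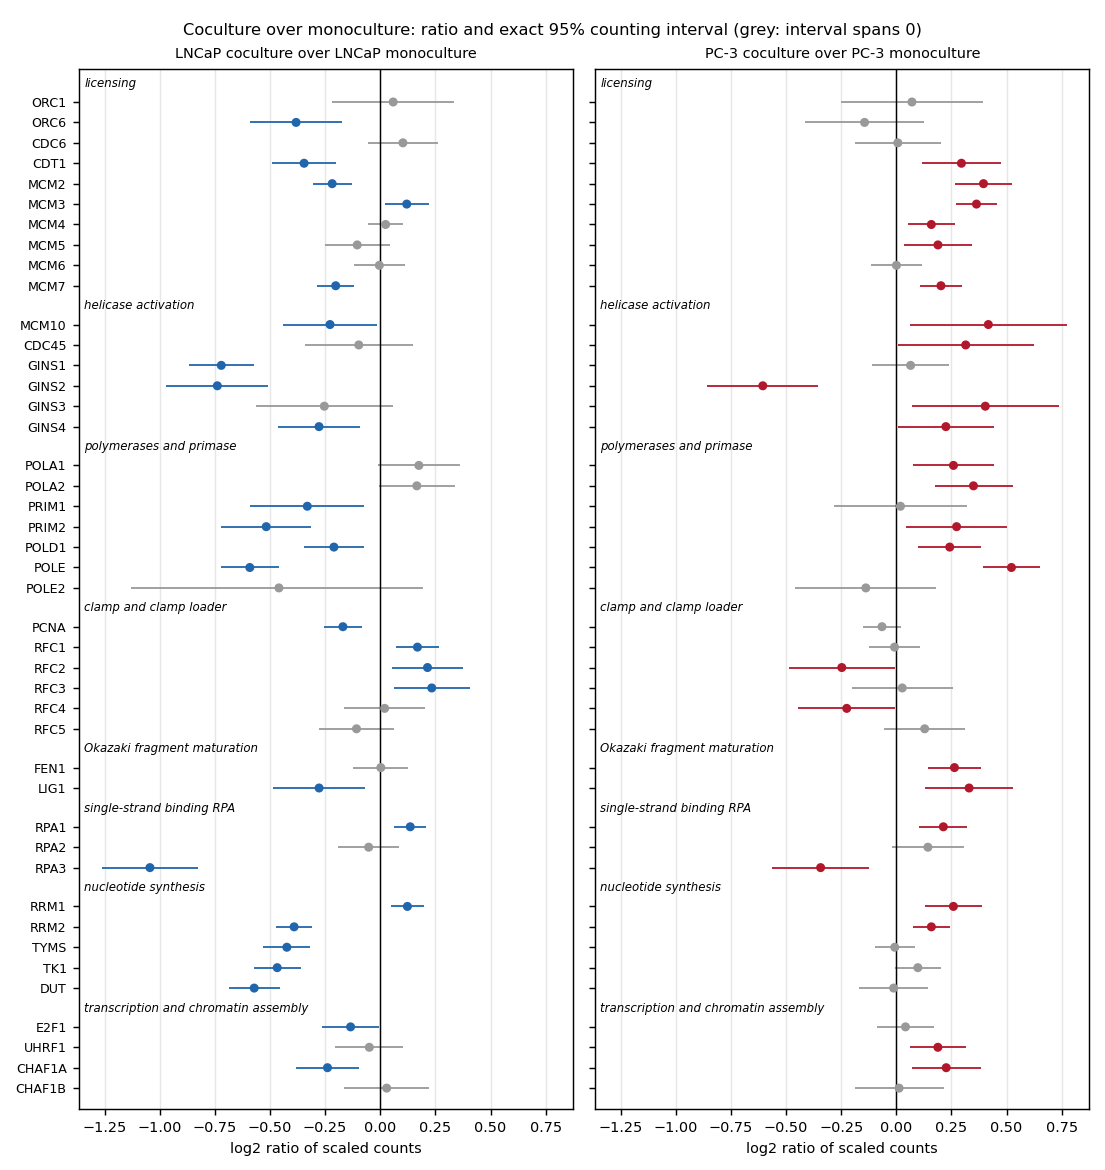
Log2 ratio of scaled counts, coculture over monoculture, for LNCaP (left) and PC-3 (right), with the exact 95% counting interval as a bar and genes grouped by role (grey where the interval spans 0). POLE lies at the right end in PC-3 and left of 0 in LNCaP, and GINS2 and RPA3 lie left of 0 in both.

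Licensing genes lay on both sides. MCM2, a helicase subunit, was at 123 CPM in the LNCaP coculture against 143 CPM in its monoculture, and at 72.2 CPM in the PC-3 coculture against 54.9 CPM in its monoculture. Its fold was 0.860 (0.808 to 0.914) with LNCaP and 1.32 (1.20 to 1.44) with PC-3, so the lines lay closer together with fibroblasts than without. CDT1, which brings the helicase to the origin, was at 43.7 CPM in the LNCaP coculture against 55.5 CPM in its monoculture, and at 36.8 CPM in the PC-3 coculture against 30.0 CPM in its monoculture. MCM7, another helicase subunit, had folds of 0.869 (0.819 to 0.922) with LNCaP and 1.15 (1.08 to 1.23) with PC-3. In these 3 genes the cocultures of the lines differed by less than the monocultures did.

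In no other licensing gene did the intervals of the coculture folds lie on opposite sides of 1 in the lines. MCM6, also a helicase subunit, was at 76.3 CPM in the LNCaP coculture against 76.6 CPM in its monoculture, and at 76.8 CPM in the PC-3 coculture against 76.7 CPM in its monoculture, the smallest range of the 43 genes. MCM3 was higher in both cocultures, at 107 CPM in the LNCaP coculture against 98.5 CPM in its monoculture, and at 137 CPM in the PC-3 coculture against 106 CPM in its monoculture. ORC6, a subunit of the origin recognition complex, was lower with LNCaP (fold 0.767, 0.665 to 0.885), while with PC-3 the interval included 1 (fold 0.905, 0.750 to 1.09). The remaining genes, ORC1, CDC6, MCM4 and MCM5, had folds between 0.930 and 1.07 with LNCaP and between 1.00 and 1.14 with PC-3. Per kilobase, MCM5 was the lowest helicase subunit in all 4 libraries. The highest, MCM7 or in the PC-3 coculture MCM3, exceeded it 3.46-fold in the LNCaP coculture against 3.70-fold in its monoculture, and 3.22-fold in the PC-3 coculture against 2.95-fold in its monoculture.

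Helicase activation genes held a member that was low in both cocultures. GINS2 (chr16:85676198-85688954, GRCh38.p14), a subunit of the GINS complex, was at 15.9 CPM in the LNCaP coculture against 26.5 CPM in its monoculture, and at 14.0 CPM in the PC-3 coculture against 21.4 CPM in its monoculture. Its folds were 0.599 (0.510 to 0.703) and 0.657 (0.552 to 0.781), so both cocultures lay below both monocultures. GINS1, another subunit, was at 39.3 CPM in the LNCaP coculture against 64.7 CPM in its monoculture (fold 0.607, 0.548 to 0.671), whereas with PC-3 the interval included 1 (fold 1.05, 0.926 to 1.18). GINS4 was lower in the LNCaP coculture (fold 0.825, 0.724 to 0.939) and higher in the PC-3 coculture (fold 1.17, 1.01 to 1.36). GINS3 had a fold of 0.839 with LNCaP, with an interval that included 1 (0.676 to 1.04), and of 1.32 with PC-3 (1.05 to 1.67). The subunits were uneven: the ratio of GINS2 to GINS4 counts was 0.576 (0.490 to 0.676) in the LNCaP coculture against 0.793 (0.696 to 0.904) in its monoculture, and 0.576 (0.486 to 0.682) in the PC-3 coculture against 1.02 (0.878 to 1.19) in its monoculture. MCM10, which helps to start the helicase, was at 21.8 CPM in the LNCaP coculture against 25.5 CPM in its monoculture, and at 9.96 CPM in the PC-3 coculture against 7.45 CPM in its monoculture. Its fold was 0.854 (0.737 to 0.989) with LNCaP and 1.34 (1.05 to 1.71) with PC-3. CDC45, the helicase cofactor, had folds of 0.935 (0.789 to 1.11) and 1.24 (1.01 to 1.54).

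Polymerase genes held the member whose coculture folds differed most between the lines. POLE (chr12:132623762-132687342, GRCh38.p14), the catalytic subunit of the leading-strand polymerase epsilon, was at 50.9 CPM in the LNCaP coculture against 76.8 CPM in its monoculture, and at 74.7 CPM in the PC-3 coculture against 52.0 CPM in its monoculture. The fold was 0.664 (0.606 to 0.726) for LNCaP and 1.44 (1.31 to 1.57) for PC-3. The lines exchanged places: LNCaP was above PC-3 without fibroblasts and below it with them. POLE2, the second subunit of the same polymerase, was at 2.26 CPM in the LNCaP coculture against 3.10 CPM in its monoculture, and at 10.0 CPM in the PC-3 coculture against 11.0 CPM in its monoculture, and both intervals of its folds included 1. PRIM2, the large primase subunit, was lower in the LNCaP coculture (fold 0.699, 0.606 to 0.804) and higher in the PC-3 coculture (fold 1.21, 1.03 to 1.42). POLD1, the catalytic subunit of polymerase delta, showed the same with smaller folds (0.864 and 1.18). The polymerase alpha genes POLA1 and POLA2 had folds of 1.13 and 1.12 with LNCaP, with intervals that included 1, and of 1.20 and 1.27 with PC-3, with intervals above 1. PRIM1, the primase catalytic subunit, had folds of 0.795 (0.664 to 0.951) with LNCaP and 1.01 with PC-3, where the interval included 1.

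The coculture folds of the clamp and its loader all lay between 0.842 and 1.18. PCNA, the clamp, was at 137 CPM in the LNCaP coculture against 154 CPM in its monoculture, and at 141 CPM in the PC-3 coculture against 147 CPM in its monoculture, with an interval below 1 for LNCaP (0.838 to 0.943). RFC2 (chr7:74231502-74254399, GRCh38.p14), a small subunit of the loader, went against the general pattern, at 43.7 CPM in the LNCaP coculture against 37.7 CPM in its monoculture, and at 16.8 CPM in the PC-3 coculture against 19.9 CPM in its monoculture. Its folds were 1.16 (1.04 to 1.30) and 0.842 (0.713 to 0.995). RFC3, another small subunit, was higher in the LNCaP coculture (fold 1.18, 1.04 to 1.32), as was RFC1, the large subunit (fold 1.12, 1.05 to 1.20), while both intervals included 1 with PC-3 (folds 1.02 and 0.994). RFC4 and RFC5, small subunits, had folds of 1.01 and 0.928 with LNCaP and of 0.856 and 1.09 with PC-3. The PC-3 interval of RFC4 lay below 1 (0.734 to 0.997). As in RFC2, the log2 folds of RFC1, RFC3 and RFC4 were higher with LNCaP than with PC-3, by 0.18, 0.21 and 0.24. The intervals of the differences of RFC3 and RFC4 included 0, and PCNA and RFC5 lay the other way.

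Of the genes that finish lagging-strand fragments, FEN1, the flap nuclease, had a fold of 1.00 (0.919 to 1.09) in the LNCaP coculture and 1.20 (1.10 to 1.31) in the PC-3 coculture. LIG1, the ligase that joins the fragments, was lower in the LNCaP coculture (fold 0.825, 0.713 to 0.954) and higher in the PC-3 coculture (fold 1.26, 1.09 to 1.44). FEN1 shares at least 166 bases of exon with TMEM258 on the opposite strand and at least 49 with FADS2 on the same strand. FADS2 had 16872 counts in the LNCaP coculture against 13026 in its monoculture, and 12788 in the PC-3 coculture against 10404 in its monoculture.

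The subunits of RPA lay apart. RPA3 (chr7:7636518-7718607, GRCh38.p14), the smallest subunit, was at 16.8 CPM in the LNCaP coculture against 34.6 CPM in its monoculture, and at 19.2 CPM in the PC-3 coculture against 24.4 CPM in its monoculture. Its folds were 0.485 (0.417 to 0.563) and 0.788 (0.676 to 0.919), and the first was the only one past 2-fold among the members' coculture folds. RPA1, the large subunit, was higher in both cocultures, at 204 CPM in the LNCaP coculture against 186 CPM in its monoculture, and at 94.7 CPM in the PC-3 coculture against 81.7 CPM in its monoculture. RPA2, the middle subunit, had folds of 0.964 and 1.10 with intervals that included 1. The ratio of RPA3 to RPA2 counts was 0.316 (0.274 to 0.364) in the LNCaP coculture against 0.628 (0.563 to 0.700) in its monoculture, and 0.458 (0.398 to 0.526) in the PC-3 coculture against 0.642 (0.564 to 0.730) in its monoculture. The intervals of the monocultures overlapped, and both cocultures lay below them. RPA3 shares at least 70 bases of exon with UMAD1 on the opposite strand.

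Nucleotide synthesis genes were lower in the LNCaP coculture with 1 exception, RRM1. DUT, dUTPase, was at 65.7 CPM in the LNCaP coculture against 97.7 CPM in its monoculture, and at 42.1 CPM in the PC-3 coculture against 42.4 CPM in its monoculture. TK1, thymidine kinase, was at 80.2 CPM in the LNCaP coculture against 111 CPM in its monoculture, and at 97.0 CPM in the PC-3 coculture against 90.6 CPM in its monoculture. TYMS, thymidylate synthase, was at 80.1 CPM in the LNCaP coculture against 107 CPM in its monoculture, and at 126 CPM in the PC-3 coculture against 127 CPM in its monoculture. The LNCaP folds of these 3 genes were 0.673 (0.621 to 0.729), 0.723 (0.672 to 0.778) and 0.745 (0.692 to 0.803), while their PC-3 intervals included 1. RRM2, the S-phase subunit of ribonucleotide reductase, was at 135 CPM in the LNCaP coculture against 177 CPM in its monoculture, and at 159 CPM in the PC-3 coculture against 142 CPM in its monoculture. Its interval lay below 1 with LNCaP (0.720 to 0.807) and above 1 with PC-3 (1.05 to 1.18). RRM1 (chr11:4094685-4138932, GRCh38.p14), the large subunit, was at 192 CPM in the LNCaP coculture against 176 CPM in its monoculture, and at 66.1 CPM in the PC-3 coculture against 55.3 CPM in its monoculture. The ratio of RRM1 to RRM2 counts was 1.42 (1.34 to 1.50) in the LNCaP coculture against 0.994 (0.943 to 1.05) in its monoculture, and 0.416 (0.387 to 0.448) in the PC-3 coculture against 0.388 (0.359 to 0.420) in its monoculture. The lines were thus further apart in this ratio than either coculture from its monoculture.

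TYMS shares at least 719 bases of exon with ENOSF1, which lies on the opposite strand, and the library kit does not mark strand. ENOSF1 had 534 counts in the LNCaP coculture against 774 in its monoculture, and 889 in the PC-3 coculture against 879 in its monoculture. The ratio of TYMS to ENOSF1 counts lay between 2.19 and 2.33 in the 4 libraries, and reads of the genes cannot be told apart where they overlap. Other members overlap opposite-strand genes too, among them GINS4 (at least 814 bases) and MCM2 (at least 774 bases), with antisense genes absent from the deposited table. MCM7 overlaps AP4M1 by at least 216 bases. Each of these lengths is the largest overlap between single exons of the genes. DUT has 8 named processed pseudogenes in GENCODE 29 and PCNA, RPA2 and RRM2 have 3 each, which makes the split of their reads uncertain.

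Among the 4 transcription and chromatin genes, CHAF1A had the coculture folds that differed most between the lines. E2F1, which activates replication genes, was at 58.1 CPM in the LNCaP coculture against 63.8 CPM in its monoculture, and at 62.1 CPM in the PC-3 coculture against 60.3 CPM in its monoculture, with an LNCaP interval just below 1 (0.832 to 0.997). CHAF1A, the large subunit of the histone chaperone that packs new DNA, had folds of 0.847 (0.767 to 0.935) and 1.17 (1.05 to 1.30), whereas its partner CHAF1B had 1.02 and 1.01 with intervals that included 1. UHRF1, which recognises hemimethylated DNA behind the fork, had 0.966 (0.868 to 1.08) and 1.14 (1.04 to 1.24).

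**Figure D3:**
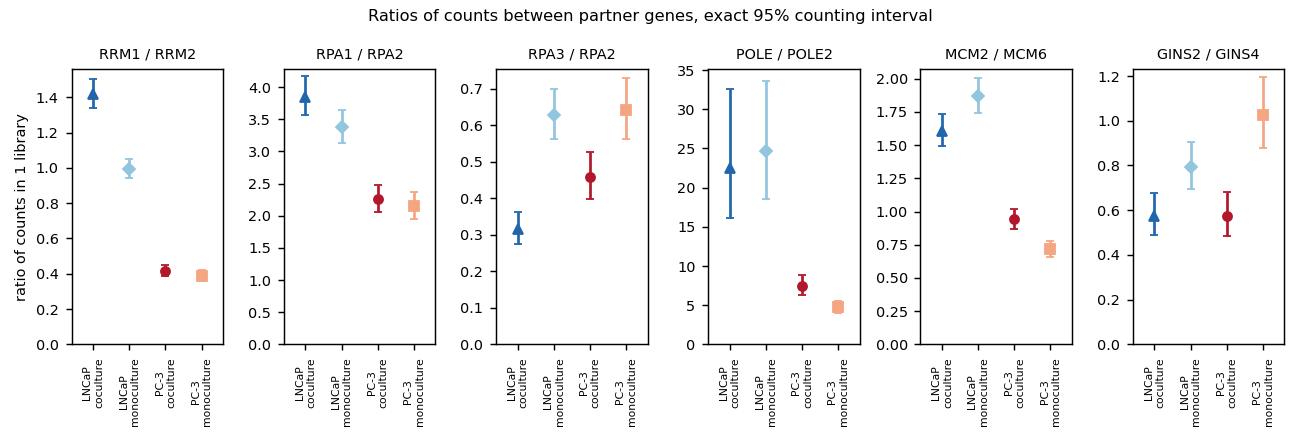
Ratio of the counts of partner genes within each library (linear axes from 0), with the exact 95% counting interval as a bar. RRM1 over RRM2 separates the lines (1.42 and 0.994 in LNCaP, 0.416 and 0.388 in PC-3), and RPA3 over RPA2 and GINS2 over GINS4 are lower in either coculture than in its monoculture.

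Gene by gene, 11 members had an interval below 1 in the LNCaP coculture and above 1 in the PC-3 coculture, where 4.47% of 13005 genes did, and 1 had the reverse, RFC2 (4.44% of genes). The 11 were CDT1, MCM2, MCM7, MCM10, GINS4, PRIM2, POLD1, POLE, LIG1, RRM2 and CHAF1A. With the PC-3 coculture log2 fold subtracted from the LNCaP one, 37 of 43 differences were below 0 (47.6% of all genes), with a median of -0.26 where that of all genes was 0.02. The counting interval of the difference lay below 0 for 23 members (20.9% of all genes) and above 0 for 2, RFC1 and RFC2 (24.1% of all genes). The shares of all genes include genes of few counts, whose intervals are wide, and were not matched to the members for level. The lowest was that of POLE, -1.11 (-1.29 to -0.93), followed by PRIM2, -0.79 (-1.09 to -0.49), and GINS1, -0.78 (-1.01 to -0.56). Across the 43 genes the coculture folds of the lines, which share no library, had a Spearman correlation of 0.0714, given as a description.

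Members with and without E2F words in the promoter had medians of the same sign in each coculture. The split is by exact words only, so a promoter without a match may still hold a similar site. In the LNCaP coculture the median log2 fold was -0.20 for the 19 genes with a match, among them POLE and GINS2 printed above, and -0.11 for the 19 without. In the PC-3 coculture the medians were 0.19 with and 0.13 without. Between the lines, LNCaP over PC-3 had medians of 0.18 with and 0.52 without a match in monoculture, and of -0.04 with and 0.44 without in coculture. With the 5 windows inside genes left out, a choice made after the data were seen, the signs stayed the same, and the medians in the LNCaP coculture over the PC-3 coculture were -0.03 for 18 genes with and 0.56 for 15 without a match.

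Of 41 other replication fork and origin genes, 28 had a log2 fold below 0 in the LNCaP coculture (median -0.11), where 49.9% of all genes did. At -0.32 or lower were 10 (19.3% of all genes) and at 0.32 or higher 0 (16.8% of all genes). With PC-3, 31 of the 41 were above 0 (median 0.16), where 50.8% of all genes were. At 0.32 or higher were 12 (11.8% of all genes) and at -0.32 or lower 2 (12.3% of all genes). PCLAF, which binds PCNA, had 394 counts in the LNCaP coculture against 770 in its monoculture (fold 0.521, 0.460 to 0.589), and TICRR, a factor of origin firing, 227 against 442 (fold 0.523, 0.444 to 0.615). RECQL4, a replication helicase, had 2403 counts in the PC-3 coculture against 1808 in its monoculture (fold 1.35, 1.27 to 1.44), and WDHD1, which links polymerase alpha to the helicase, 850 against 653 (fold 1.33, 1.20 to 1.47). Of the mitosis genes, 38 of 40 were below 0 in the LNCaP coculture (median -0.36), where 49.9% of all genes were. In the PC-3 coculture 35 of 40 were above 0 (median 0.29), where 50.8% of all genes were. These lists lay on the same side as the 43 genes in each line, and no test of a difference was made.

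Other genes of nucleotide synthesis, which act mainly in general purine and pyrimidine supply, did not lie to one side. Of 32 measured with LNCaP, 19 were above 0 (median 0.01), where 50.1% of all genes were. At 0.32 or higher was 1 (16.8% of all genes) and at -0.32 or lower were 5 (19.3% of all genes). ATIC, an enzyme of purine synthesis, was the higher one (fold 1.37, 1.29 to 1.47), and NME2, a nucleoside diphosphate kinase close in sequence to NME1 and so less certain, had a fold of 0.572 (0.550 to 0.595). Of 33 measured with PC-3, 18 were above 0 (median 0.02), where 50.8% of all genes were. Among the 18 was SAMHD1, which degrades deoxynucleotides (fold 1.31, 1.24 to 1.40), while NME2 had a fold of 0.743 (0.717 to 0.770). Among 21 genes of the E2F and RB families and cell cycle inhibitors, 9 were above 0 with LNCaP (median -0.05) and 11 with PC-3 (median 0.01). The shares of all genes above 0 were 50.1% with LNCaP and 50.8% with PC-3. Inhibitors lay on both sides. CDKN1A, which encodes p21, had folds of 1.15 (1.11 to 1.20) with LNCaP and 1.12 with PC-3, where the interval began at 0.994 and included 1. In the LNCaP coculture CDKN2C had a fold of 0.693 (0.619 to 0.775) and CDKN1B of 0.757 (0.716 to 0.801). CDKN2A was lower in both cocultures, with folds of 0.846 (0.734 to 0.973) for LNCaP and 0.753 (0.702 to 0.808) for PC-3, where CDKN1C had 0.799 (0.692 to 0.922).

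**Figure D4:**
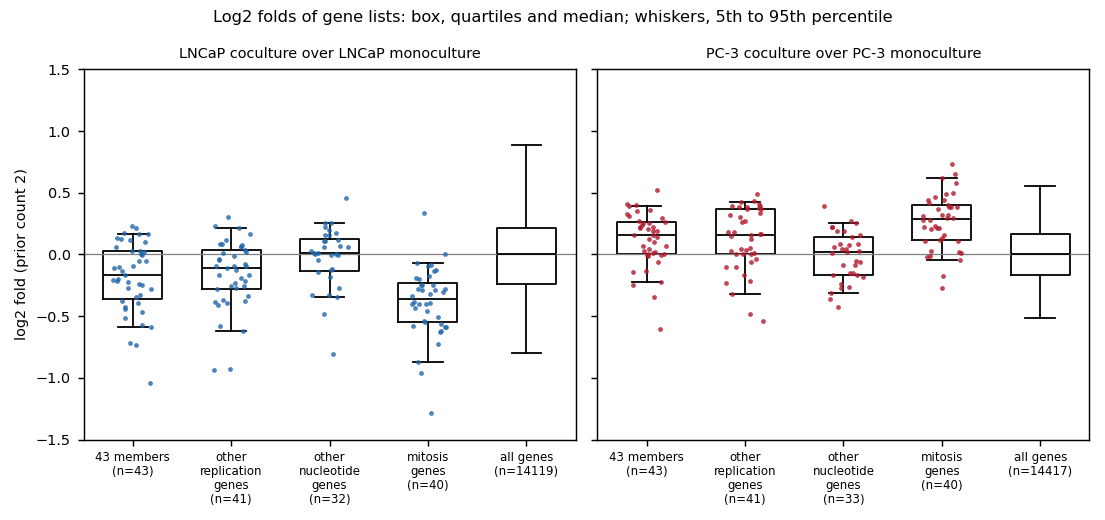
Log2 folds (prior count of 2) of the 43 genes, 3 related lists and all measured genes, coculture over monoculture, for LNCaP (left) and PC-3 (right). Points are genes, boxes give quartiles and median, whiskers run from the 5th to the 95th percentile, and the points of all genes are not drawn. The boxes of the 43 genes and of the mitosis genes lie mostly below 0 in LNCaP and above 0 in PC-3.

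Transcript length moved with the coculture folds, and its part in the results was not tested beyond the correction given here. Over all genes with a length, the Spearman correlation of log2 fold with transcript length was 0.170 in the LNCaP coculture (13433 genes) and 0.234 in the PC-3 coculture (13765 genes), and over the 43 members 0.287 and 0.403. These points share their libraries. Genes under 1500 bases had a median of -0.20 in the LNCaP coculture and -0.18 in the PC-3 coculture. After the trend on transcript length and GC content was subtracted, 11 members were above 0 in the LNCaP coculture, where 54.8% of all genes were, with the median of -0.09 given above. In the PC-3 coculture 34 members were above 0 after it, where 52.8% of all genes were, with a median of 0.15 (0.01 for all genes). RPA3 was at -1.03 with LNCaP and -0.27 with PC-3 after this step, and GINS2 at -0.78 and -0.60, so both genes stayed below 0. PCNA, whose transcript of 1359 bases is the shortest of the members, was at -0.04 and 0.10 after it.

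Without fibroblasts, most replication genes were higher in LNCaP than in PC-3. Of the 43, 38 had a log2 fold above 0, where 51.3% of the 15160 genes measured did, and 5 lay below 0 (48.7% of all genes), with a median of 0.50 (0.04 for all genes). A log2 fold of 0.32 or higher was found for 27 members (40.9% of all genes) and one of -0.32 or lower for 2, POLE2 and UHRF1 (38.7% of all genes). At least 1.5-fold higher were 16 (32.3% of all genes) and at least 2-fold higher 6 (22.1% of all genes). POLE2 was the 1 member at least 1.5-fold lower (31.4% of all genes) and also past 2-fold (23.6% of all genes). The counting interval lay above 1 for 31 (44.1% of all genes) and below 1 for 4 (42.1% of all genes).

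The members' greatest differences between the lines were in single genes. RRM1 was at 176 CPM in the LNCaP monoculture against 55.3 CPM in the PC-3 monoculture (fold 3.19, 2.95 to 3.44), while its partner RRM2 was at 177 CPM in the LNCaP monoculture against 142 CPM in the PC-3 monoculture. MCM10 was at 25.5 CPM in the LNCaP monoculture against 7.45 CPM in the PC-3 monoculture (fold 3.42, 2.78 to 4.24). MCM2 was at 143 CPM in the LNCaP monoculture against 54.9 CPM in the PC-3 monoculture (fold 2.60, 2.41 to 2.82). These 3 genes with RPA1 (fold 2.28, 2.13 to 2.43), DUT (fold 2.30, 2.10 to 2.52) and MCM4 (fold 2.01, 1.89 to 2.15) were the members past 2-fold higher. In the other direction, POLE2 (chr14:49643555-49688214, GRCh38.p14) was at 3.10 CPM in the LNCaP monoculture against 11.0 CPM in the PC-3 monoculture, from 49 and 176 counts (fold 0.281, 0.201 to 0.388). UHRF1 was at 44.7 CPM in the LNCaP monoculture against 60.7 CPM in the PC-3 monoculture (fold 0.737, 0.668 to 0.812). TYMS was at 107 CPM in the LNCaP monoculture against 127 CPM in the PC-3 monoculture (fold 0.847, 0.794 to 0.904). MCM3 was slightly lower too (fold 0.925, 0.863 to 0.991), and MCM6, POLA1, PCNA, FEN1 and E2F1 had folds between 0.998 and 1.06 with intervals that included 1.

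Partner genes thus differed unequally between the lines. Within the helicase, the ratio of MCM2 to MCM6 counts was 1.87 (1.74 to 2.00) in the LNCaP monoculture against 0.715 (0.655 to 0.781) in the PC-3 monoculture, while that of MCM5 to MCM6 was 0.651 (0.594 to 0.713) against 0.536 (0.486 to 0.589). Within polymerase epsilon, the ratio of POLE to POLE2 counts was 24.7 (18.6 to 33.6) in the LNCaP monoculture against 4.72 (4.00 to 5.58) in the PC-3 monoculture. For the polymerase alpha genes the intervals of the ratio of POLA1 to POLA2 overlapped, at 0.866 (0.763 to 0.983) in the LNCaP monoculture against 0.954 (0.836 to 1.09) in the PC-3 monoculture.

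With fibroblasts in both tissues, fewer members separated the lines. In the LNCaP coculture 24 of 43 members were above the PC-3 coculture by log2 fold, where 50.2% of the 15155 genes measured were, and 19 below it (49.8% of all genes), with a median of 0.13 (0.01 for all genes). A log2 fold of 0.32 or higher was found for 15 (39.5% of all genes) and one of -0.32 or lower for 6 (39.7% of all genes). At least 1.5-fold higher were 11 (31.0% of all genes) and at least 1.5-fold lower 3, POLE2, UHRF1 and TYMS (32.1% of all genes). Past 2-fold were 4 higher (20.7% of all genes) and 1 lower (23.6% of all genes). The counting interval lay above 1 for 18 (42.4% of all genes) and below 1 for 9 (42.7% of all genes). The share above 1 was thus near that of all genes, and the share below 1 under it.

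RRM1 and MCM10 at one end and POLE2, UHRF1 and TYMS at the other were again among the most unequal genes, now with RFC2. RRM1 was at 192 CPM in the LNCaP coculture against 66.1 CPM in the PC-3 coculture (fold 2.90, 2.70 to 3.12). RFC2 was at 43.7 CPM in the LNCaP coculture against 16.8 CPM in the PC-3 coculture (fold 2.60, 2.26 to 3.01), and MCM10 had a fold of 2.19 (1.81 to 2.66). POLE2, from 35 and 157 counts, had a fold of 0.225 (0.151 to 0.327), UHRF1 of 0.624 (0.566 to 0.688) and TYMS of 0.635 (0.591 to 0.682). Across the 43 genes, the LNCaP over PC-3 log2 folds with and without fibroblasts, which share no library, had a Spearman correlation of 0.776, given as a description. Of the 38 genes higher in LNCaP without fibroblasts, 24 were also higher with them and 14 were lower, and the other 5 were lower in both. The 14 included POLE (fold 0.682, 0.622 to 0.747), LIG1 (0.745), TK1 (0.827) and RRM2 (0.851), which like FEN1 had coculture intervals below 1. In the rest of the 14, MCM5, GINS3, POLA1, POLA2, PRIM2, POLD1, PCNA, RPA3 and E2F1, the coculture interval included 1. MCM6, among the 5 lower in both, had intervals that included 1 in both.

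**Figure D5:**
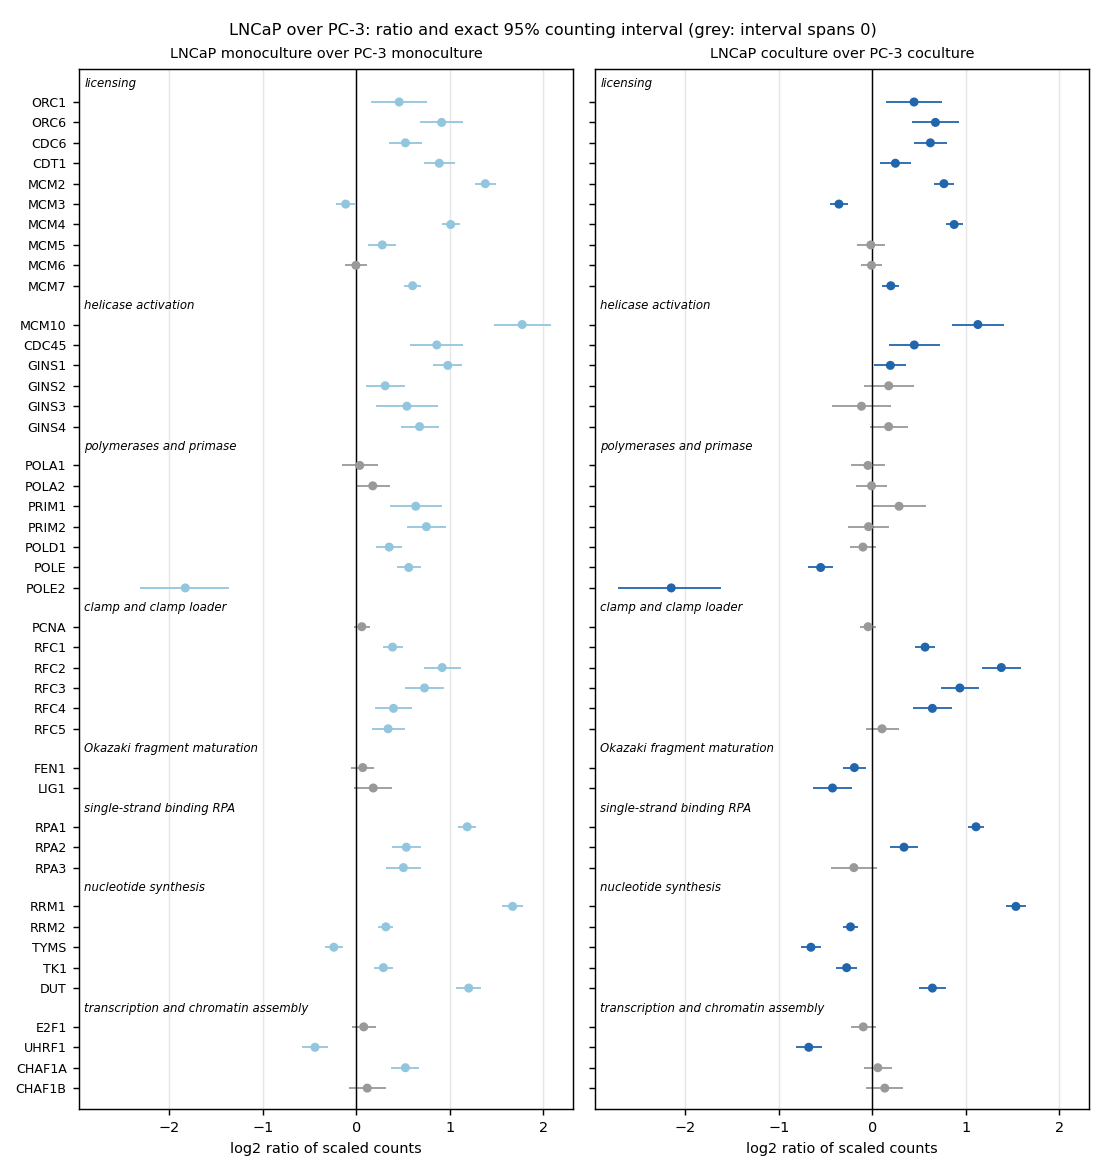
Log2 ratio of scaled counts, LNCaP over PC-3, in monoculture (left) and in coculture (right), with the exact 95% counting interval as a bar (grey where the interval spans 0). RRM1, RPA1, MCM2 and MCM10 lie right of 0 and POLE2 far left of 0 in both panels, while POLE lies right of 0 in monoculture and left of 0 in coculture.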

How the data were processed

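The authors deposited estimated counts per gene symbol for 4 libraries, 1 per group, with totals that differ. The submitters' processing notes name FastQC, STAR, Partek and hg38, without roles or versions; annotation and filters are not given in the sources used here. Libraries were made with TruSeq RNA v2, per the labels' protocols, a kit that does not mark strand. Between 33.5% and 33.9% of values per library were not whole (tolerance 1e-06), and all were rounded. Counts were scaled to CPM with TMM factors (edgeR 4.0.16, R 4.3.3). Log2 folds used a prior count of 2, and genes needed 1 CPM in 1 of the 2 libraries compared. Fold intervals are exact conditional binomial intervals, and those of differences of log2 folds use the delta method. Both cover counting error only, as each group had 1 library. Reads were not collapsed by molecular identifiers and the counts are estimates, so the intervals may be too narrow even for counting error. The log2 limit of 0.32 is that of the lowest of 3 fold limits. Scaling, log2 folds and fold intervals were tested on counts simulated with counting error only. The length and GC correction, the intervals of differences and the promoter search were not tested in this way.

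All 43 members were described, the 3 highest and 3 lowest per comparison at 5 CPM or more in full; from other lists, genes were named out of the 3 highest and 3 lowest at 20 CPM or more. Members and lists were chosen with earlier results of these data known. Gene positions and promoters are RefSeq's (GRCh38.p14), and 5 promoter windows lie inside their gene. Transcript lengths, available for 16635 of 17791 genes, are those of the longest principal transcript in GENCODE 29 and set the levels per kilobase. Alternatives were DESeq2 size factors (version 1.42.0), total counts only, a prior count of 0.5, no filter, a 5 CPM filter, unrounded counts, and a loess correction (span 0.3) for length and GC content. Figures were drawn with matplotlib 3.10.9; other steps used Python 3.11.15 with pandas 2.3.3, scipy 1.17.1 and numpy 2.4.6.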

Additional observations from a re-analysis of the deposited data

Results flagged for a closer look

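In 12 genes the counting intervals of the coculture folds lay on opposite sides of 1 in the lines, below it with LNCaP and above it with PC-3 except for RFC2. The difference in log2 fold, LNCaP minus PC-3, was -1.11 for POLE, -0.79 for PRIM2, -0.64 for CDT1, -0.64 for MCM10, -0.61 for MCM2 and -0.60 for LIG1. It was -0.55 for RRM2, -0.50 for GINS4, -0.46 for CHAF1A, -0.45 for POLD1 and -0.40 for MCM7, and 0.46 for RFC2. With 1 library per group these differences were not tested.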

How the results depend on the processing

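No paired analysis was possible because each group had 1 library, and for the same reason no library could be left out. Medians and counts are held here to a change of less than 1.5 times. The members' medians and the counts of members above 0 and past each fold limit stayed within it, with the same sign, under DESeq2 size factors, total counts only, a prior count of 0.5, no filter, a 5 CPM filter (which drops POLE2 from the LNCaP coculture comparison) and unrounded counts. The correction for length and GC content moved 2 of these results. The members' median in the LNCaP coculture over its monoculture was -0.0882 with it, against -0.169 without it, and 1 member, GINS2, was at a log2 fold of -0.32 or lower in the PC-3 coculture, against 2 without it. Among the coculture medians by role, 1 changed sign with it and 5 moved past the limit. That of the clamp and its loader in PC-3 turned to 0.0440 with it, against -0.0366 without it. That of polymerases and primase in LNCaP was -0.168, against -0.328. The others that moved were licensing, RPA and the chromatin genes in LNCaP and the chromatin genes in PC-3. Under DESeq2 size factors 3 medians by role moved past the limit and 13 stayed within it. Of the 172 single folds, 21 left their counting interval under the correction for length and GC content, and no fold past 0.32 on the log2 scale changed sign. The span of MCM2 to MCM7 per kilobase, recomputed with the longest transcript of each gene after the data were seen, moved little. Intervals cover counting error only, and POLE2, at 35 and 49 counts in LNCaP, is the least precise member.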
